A study of Mus musculus with 9 samples.

Results

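The 10 genes described here, Kdr, Flt1, Nrp1, Dll4, Tek, Cldn5, Cdh5, Pecam1, Tmem100 and Vstm4, are genes of blood vessels and of the VEGF and Notch signals that shape them, followed in RNA from mouse spinal cord. They were picked by symbol from a table of 40879 gene symbols, with the levels of these same libraries already known, and their differences between groups are therefore given as description. Counts of the 10 that passed a test over all genes are printed beside the share of all genes that did, and nothing is read from them. All 10 symbols were present and all 10 had enough counts to be among the 18245 genes tested. The cord came from male mice in 3 groups of 3 libraries, labelled SNI+LDN193189, SNI and sham. SNI is the usual abbreviation of spared nerve injury, a surgical model of neuropathic pain made by cutting some branches of the sciatic nerve. The injury is shared by the SNI+LDN193189 and SNI groups, and the compound was given only in the first. LDN193189 is a small molecule that inhibits the kinases of BMP type I receptors. The labels give no strain, age, cord segment or side, no time since surgery, and no dose, route or vehicle for LDN193189. The table's columns carry only the letters L, N and S, read here as these 3 groups in that order. If S stood for SNI, the SNI and sham values below would change places. The replicates are called biosamples and are not said to be separate animals, so any p-value here reflects spread between samples that may be technical.

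The lining of a blood vessel is a single layer of endothelial cells. VEGF-A made by the surrounding tissue binds KDR on these cells, with NRP1 as a co-receptor and FLT1 as a tight-binding receptor that limits the signal. In sprouting vessels VEGF signalling raises the Notch ligand DLL4 in the leading cell, and Notch activity in the neighbouring cells lowers their KDR. In brain and cord the layer is sealed by tight junctions in which CLDN5 is the main claudin. Endothelial cells also carry ALK1, a BMP type I receptor for circulating BMP ligands, whose signal induces Tmem100.

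Each library held 33432776 to 37190467 counts. Neuronal, oligodendrocyte and astrocyte markers were abundant in every library, the summed level of 8 oligodendrocyte markers running from 24020 to 28050 CPM, the unit of level used below, in which each count is scaled to the size of its library. Aqp4 and P2ry12, defining markers of astrocytes and microglia, were listed at 0 throughout, and so were 15 of the 304 list genes in total. Some libraries stood apart in tissue markers. Sham replicate 3 held 207 CPM of the fibroblast gene Dcn, against at most 103 CPM in the other libraries. Sham replicate 1 held 222 CPM of skeletal actin, Acta1, against at most 4.16 CPM elsewhere. SNI+LDN193189 replicate 3 held 6.85 CPM of Hoxd10, a gene of lumbar cord, against at least 31.7 CPM elsewhere. Fold changes of the 10 genes that moved by more than 1.5 times without one of these 3 libraries are also given without it.

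The promoters of 4 of the 10 genes are shown, the 3 that differed most in SNI+LDN193189 against SNI and Flt1, which differed little. Each sequence runs from 250 bases before to 50 bases after the start of the gene, 5′ to 3′ on the gene's own strand, and comes from RefSeq on GRCm38.p6. Capitals mark TGGGAA, the core word bound by RBPJ, the DNA-binding protein of the Notch pathway.
Dll4, chr2:119325534-119325833, plus strand: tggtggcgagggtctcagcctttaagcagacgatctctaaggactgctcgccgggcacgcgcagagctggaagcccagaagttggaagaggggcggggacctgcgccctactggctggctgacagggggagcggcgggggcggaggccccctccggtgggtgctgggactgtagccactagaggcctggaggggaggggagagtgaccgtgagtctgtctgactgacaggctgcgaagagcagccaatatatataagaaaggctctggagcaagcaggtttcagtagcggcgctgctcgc
Kdr, chr5:75978406-75978705, minus strand: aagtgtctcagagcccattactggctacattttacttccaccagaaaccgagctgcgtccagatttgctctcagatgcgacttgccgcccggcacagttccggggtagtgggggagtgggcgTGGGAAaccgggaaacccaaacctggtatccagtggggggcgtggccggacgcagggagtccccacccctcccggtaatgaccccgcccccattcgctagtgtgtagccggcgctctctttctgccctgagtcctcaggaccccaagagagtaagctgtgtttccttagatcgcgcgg
Vstm4, chr14:32856506-32856805, plus strand: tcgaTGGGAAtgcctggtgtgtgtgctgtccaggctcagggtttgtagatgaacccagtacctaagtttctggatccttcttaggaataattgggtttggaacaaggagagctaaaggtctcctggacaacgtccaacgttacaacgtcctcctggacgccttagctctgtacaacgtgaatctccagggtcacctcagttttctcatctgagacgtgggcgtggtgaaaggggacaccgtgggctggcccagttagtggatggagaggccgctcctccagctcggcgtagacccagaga
Flt1, chr5:147725962-147726261, minus strand: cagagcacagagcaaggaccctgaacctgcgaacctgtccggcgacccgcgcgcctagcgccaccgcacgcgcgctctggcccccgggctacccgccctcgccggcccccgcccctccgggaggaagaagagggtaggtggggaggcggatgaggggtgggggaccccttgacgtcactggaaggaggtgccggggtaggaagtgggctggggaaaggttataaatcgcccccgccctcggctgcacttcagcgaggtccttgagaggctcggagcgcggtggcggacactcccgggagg

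Promoters of 7 of the 10 genes were in the sequence table, those of Cdh5, Pecam1 and Tmem100 being the others. On either strand TGGGAA was found in 2 of the 7, once in Kdr with its first base at -128 and once in Vstm4 at -246, and in 25.6% of 32851 mouse promoters of the same length. GGCGCC, a word bound by SMADs of the BMP pathway, was found in 0 of the 7 and in 11.9% of all promoters. GGAAG, the core word of ETS factors, was found in 4 of the 7, Kdr, Flt1, Dll4 and Nrp1, and in 71.4% of all promoters. ACGTG, the core of the hypoxia element, was found in 1 of the 7, Vstm4, and in 19.6% of all promoters. TGGGAA was absent from Dll4, which differed most, and from Flt1, which differed little. The words describe the letters of this window and are not binding sites by themselves. Whether any of them bears on the levels was not tested.

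Levels of different genes were compared in FPKM, which divides by gene length and library total. Over all 9 libraries Cldn5 was the most abundant of the 10, at 20.1 ± 4.91 FPKM (mean ± SD, n = 9). Tmem100 followed at 10.5 ± 1.92 FPKM, then Pecam1 at 9.15 ± 1.58, Vstm4 at 8.05 ± 2.48 and Flt1 at 7.10 ± 0.517 FPKM. The lower part of the order held Tek at 5.29 ± 0.833 FPKM, Cdh5 at 4.63 ± 0.961, Nrp1 at 4.01 ± 0.476, Kdr at 2.93 ± 0.816 and Dll4 at 0.881 ± 0.287 FPKM. Cldn5 stood above Tmem100, and Kdr above Dll4, without any overlap between libraries, while every other pair of neighbours in this order overlapped. Dll4 also rests on the fewest reads, with 60 to 159 counts in a library, against 391 or more for each of the others.

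**Figure D1:**
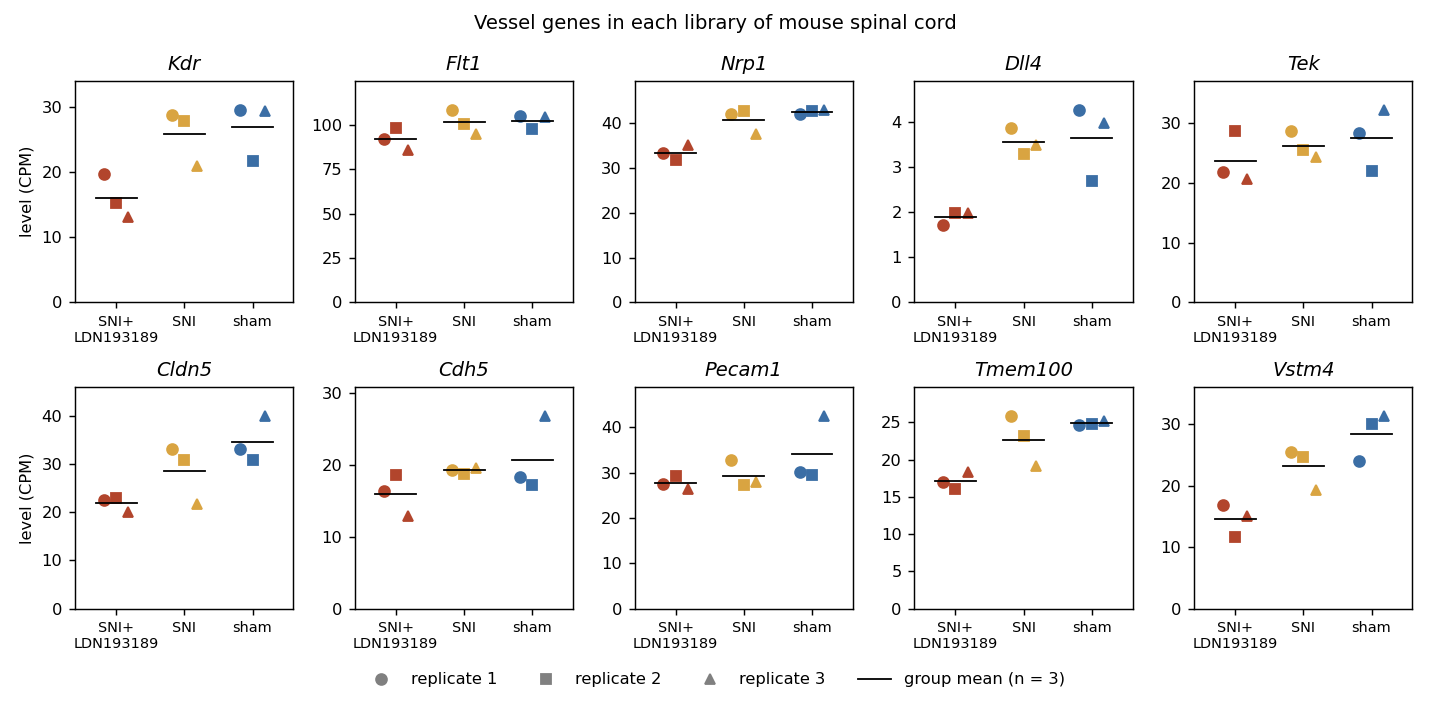
Levels of the 10 vessel genes in each library, in CPM on linear axes that start at 0, by group, with a marker shape for each replicate number and a line at the mean of 3 libraries. Dll4, Kdr, Nrp1, Tmem100 and Vstm4 lie lower in all SNI+LDN193189 libraries than in any SNI or sham library, while Flt1 and Tek overlap in part.

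SNI+LDN193189 against SNI compares injured cord with and without the compound, and no vehicle is named for the SNI group. All 10 vessel genes stood lower in SNI+LDN193189, with the widest gaps in Dll4, Kdr and Vstm4 and the narrowest in Pecam1, Flt1 and Tek. In 6 of the 10, Kdr, Dll4, Nrp1, Tmem100, Cdh5 and Vstm4, every SNI+LDN193189 library was below every SNI library, against 5.55% of all genes tested. The median log2 fold change of the 10 was -0.34, beside -0.00075 over all genes tested, and 50.2% of all genes stood below 0. Nothing is read from these counts, since the genes were chosen with this comparison in view. In whole cord, fewer endothelial cells and less RNA of a gene per cell cannot be told apart.

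Among the VEGF receptors, Kdr differed most. Kdr, which encodes VEGFR2, the main signalling receptor for VEGF-A, stood at 19.7, 15.2 and 13.1 CPM in the SNI+LDN193189 libraries (replicates 1, 2 and 3, an order kept below), at 28.7, 27.8 and 20.9 CPM in SNI and at 29.5, 21.6 and 29.4 CPM in sham. All 3 SNI+LDN193189 libraries were below the other 6, although SNI+LDN193189 replicate 1 and SNI replicate 3 lay close together. The means were 16.0 ± 3.36 CPM in SNI+LDN193189 and 25.8 ± 4.27 in SNI (SD, n = 3 each), a log2 fold change of -0.69 (SE 0.189), or a ratio of 0.622. Without SNI+LDN193189 replicate 3 it was -0.56, and without SNI replicate 3 it was -0.82. Kdr lies on chromosome 5 from 75932827 to 75978458 (GRCm38, minus strand) and shares no exonic base with another gene.

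Nrp1, the co-receptor for VEGF-A and for class 3 semaphorins, which neurons also express, stood at 33.5, 31.8 and 35.3 CPM in SNI+LDN193189, at 42.0, 42.8 and 37.6 CPM in SNI and at 42.2, 42.7 and 43.0 CPM in sham. Its libraries were tightly grouped, and the SNI+LDN193189 libraries were below all the others. The means were 33.5 ± 1.74 CPM in SNI+LDN193189 and 40.8 ± 2.81 in SNI, a log2 fold change of -0.28 (SE 0.0694). Flt1, which encodes VEGFR1, stood at 92.2, 98.5 and 86.1 CPM in SNI+LDN193189, at 108, 101 and 95.1 CPM in SNI and at 105, 97.7 and 104 CPM in sham. The groups overlapped, SNI+LDN193189 replicate 2 lying above SNI replicate 3 and sham replicate 2. The log2 fold change of Flt1 was -0.14 (SE 0.0636), a ratio of 0.910 beside 0.622 for Kdr in the same libraries. It was -0.09 without SNI+LDN193189 replicate 3 and -0.09 without SNI replicate 1. Nrp1 lies on chromosome 8 from 128358604 to 128503363 and shares 80 exonic bases, 0.82% of them, with the microRNA gene Mir1903, and Flt1 lies on chromosome 5 from 147561604 to 147726011.

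Dll4, the Notch ligand of leading cells and arteries, had the largest difference of the 10. It stood at 1.72, 1.97 and 1.98 CPM in SNI+LDN193189, at 3.86, 3.28 and 3.49 CPM in SNI and at 4.26, 2.70 and 3.98 CPM in sham. The counts behind these levels were 60, 66 and 69 in SNI+LDN193189, 127, 122 and 126 in SNI and 159, 92 and 148 in sham. The SNI+LDN193189 libraries were nearly level and all below the other 6, and sham replicate 2 was the lowest of those. The means were 1.89 ± 0.145 CPM in SNI+LDN193189 and 3.54 ± 0.292 in SNI, a log2 fold change of -0.90 (SE 0.212), or a ratio of 0.534. On log2(FPKM + 1), which compresses low levels, it was -0.39. Dll4 lies on chromosome 2 from 119325784 to 119335962 and shares 214 exonic bases, 5.56% of them, with Gm14207 on the opposite strand, and the sources used here do not say whether counting used the strand.

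Tek, which encodes TIE2, the angiopoietin receptor, stood at 21.9, 28.7 and 20.7 CPM in SNI+LDN193189, at 28.8, 25.6 and 24.4 CPM in SNI and at 28.5, 22.1 and 32.2 CPM in sham. SNI+LDN193189 replicates 1 and 3 were below every SNI and sham library, while replicate 2 lay close to the highest SNI library. Its log2 fold change of -0.14 (SE 0.154) was smaller than its error. Without SNI+LDN193189 replicate 3 it was -0.05, without SNI+LDN193189 replicate 1 it was -0.09, without SNI replicate 1 it was -0.07, and without SNI+LDN193189 replicate 2 it was -0.30.

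Of the junction genes, Cldn5 differed more than Cdh5 and Pecam1. Cldn5 stood at 22.6, 23.0 and 20.0 CPM in SNI+LDN193189, at 33.2, 30.9 and 21.8 CPM in SNI and at 33.1, 30.9 and 39.9 CPM in sham. SNI replicate 3 lay within the SNI+LDN193189 range, and all other SNI and sham libraries were above it. The means were 21.9 ± 1.63 CPM in SNI+LDN193189 and 28.6 ± 6.03 in SNI, a log2 fold change of -0.39 (SE 0.153), which was -0.55 without SNI replicate 3.

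Cdh5, the VE-cadherin of endothelial adherens junctions, stood at 16.3, 18.6 and 12.9 CPM in SNI+LDN193189, at 19.2, 18.8 and 19.6 CPM in SNI and at 18.3, 17.1 and 26.8 CPM in sham. The SNI+LDN193189 libraries were below those of SNI, but replicate 2 by only a small margin and within the range of sham. The log2 fold change of Cdh5 was -0.27 (SE 0.172), and -0.14 without SNI+LDN193189 replicate 3. Pecam1, the adhesion molecule CD31, stood at 27.5, 29.2 and 26.3 CPM in SNI+LDN193189, at 32.9, 27.2 and 27.9 CPM in SNI and at 30.1, 29.6 and 42.5 CPM in sham. SNI+LDN193189 and SNI overlapped, and its log2 fold change of -0.08 (SE 0.132) was smaller than its error. It was -0.05 without SNI+LDN193189 replicate 3, 0.01 without SNI replicate 1 and -0.13 without SNI replicate 2.

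Tmem100, the membrane protein induced through ALK1 in endothelium, stood at 17.0, 16.1 and 18.3 CPM in SNI+LDN193189, at 25.9, 23.1 and 19.1 CPM in SNI and at 24.7, 24.8 and 25.2 CPM in sham. The SNI+LDN193189 libraries were below all the others, with SNI replicate 3 just above them. The means were 17.1 ± 1.14 CPM in SNI+LDN193189 and 22.7 ± 3.39 in SNI, a log2 fold change of -0.41 (SE 0.102). Vstm4, a membrane protein with an immunoglobulin-like domain that is cut to release a secreted peptide, stood at 16.8, 11.7 and 15.0 CPM in SNI+LDN193189, at 25.5, 24.7 and 19.2 CPM in SNI and at 24.0, 30.0 and 31.3 CPM in sham. All SNI+LDN193189 libraries were again below the other 6, and SNI replicate 3 was the lowest of those. The means were 14.5 ± 2.59 CPM in SNI+LDN193189 and 23.1 ± 3.38 in SNI, a log2 fold change of -0.67 (SE 0.154), or a ratio of 0.628. Tmem100 lies on chromosome 11 from 90030348 to 90036508 and Vstm4 on chromosome 14 from 32856756 to 32939491.

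With the edgeR quasi-likelihood test and Benjamini-Hochberg adjustment over all genes, 0 of the 10 passed 0.05 in this comparison, where 0.00548% of all genes did. At an unadjusted p under 0.05, 7 of the 10 were lower, against 2.19% of all genes tested. DESeq2 called 2 of the 10 as lower, Kdr and Vstm4, against 0.0238% of genes. None of the 10 was higher in SNI+LDN193189, whereas over all genes 1.69% were higher at an unadjusted edgeR p under 0.05, 0.0178% were called higher by DESeq2 and 5.71% had every SNI+LDN193189 library above every SNI library. With the independent filtering of DESeq2 set at 0.05, Vstm4 was called and Kdr was not. These calls were known when the genes were chosen and are given as description.

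**Figure D2:**
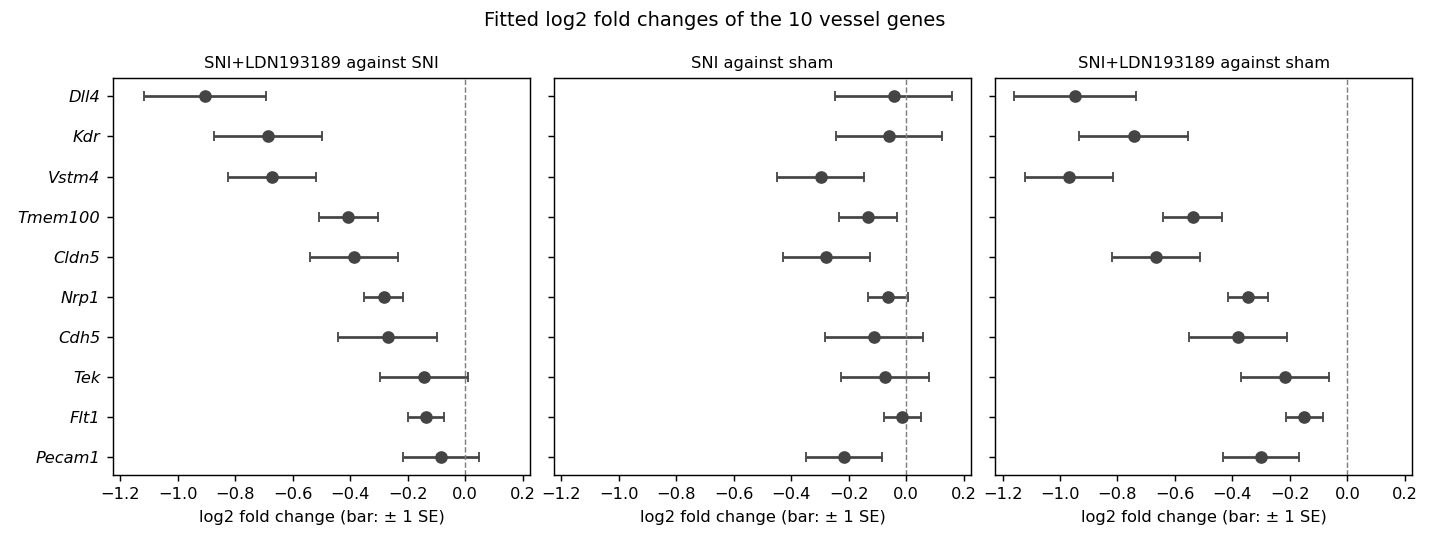
Fitted log2 fold changes of the 10 genes in 3 comparisons, on linear axes, with bars of 1 SE from the edgeR fit of all 9 libraries. In both comparisons of SNI+LDN193189 all 10 lie below 0, from -0.90 to -0.08 against SNI and from -0.97 to -0.15 against sham, and in SNI against sham they lie from -0.30 to -0.01.

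SNI against sham compares the same genes between injured and sham cord. The 10 differed little: their log2 fold changes ran from -0.30 in Vstm4 to -0.01 in Flt1, with a median of -0.09 beside 0.00048 over all genes tested. All 10 stood below 0, as did 49.9% of all genes, and 0 of the 10 had every SNI library below every sham library, against 4.43% of all genes. Kdr averaged 25.8 ± 4.27 CPM in SNI and 26.8 ± 4.49 CPM in sham, and its fitted log2 fold change was -0.06 (SE 0.185). Dll4 averaged 3.54 ± 0.292 CPM in SNI and 3.65 ± 0.835 CPM in sham, with a fitted log2 fold change of -0.04 (SE 0.205). Both groups of both genes overlapped. Vstm4, at 23.1 ± 3.38 CPM in SNI against 28.4 ± 3.91 CPM in sham, and Cldn5, at 28.6 ± 6.03 CPM in SNI against 34.7 ± 4.71 CPM in sham, had the largest values, -0.30 (SE 0.150) and -0.28 (SE 0.151). Without SNI replicate 3 these were -0.18 for Vstm4 and -0.11 for Cldn5, and without sham replicate 3 Cldn5 was at -0.17.

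No member passed in SNI against sham with edgeR, where 0.0% of genes did, or with DESeq2, where 0.103% were called lower, and 0 of the 10 had an unadjusted edgeR p under 0.05, against 3.31% of genes that were lower. None of the 10 was higher, whereas over all genes 2.02% were higher at an unadjusted p under 0.05, 0.0197% were called higher by DESeq2 and 4.45% had every SNI library above every sham library. Sham replicate 3 was the highest library for 6 of the 10 and among the 3 highest for all 10. Without it the median was -0.02, and Cdh5 stood at 0.11, Tek at 0.05, Dll4 at 0.02, Kdr at 0.01, Flt1 at -0.0024 and Pecam1 at -0.03, the last beside -0.22 with all libraries. Without sham replicate 1 Cdh5 stood at -0.20, Dll4 at 0.08, Kdr at 0.01 and Flt1 at 0.005. Without sham replicate 2 Cdh5 stood at -0.23, Dll4 at -0.22, Tek at -0.21 and Kdr at -0.19. Without SNI replicate 3 the median was -0.03, and Kdr stood at 0.07, Flt1 at 0.03, and Nrp1, Tek and Tmem100 at -0.0067, -0.02 and -0.02. The direction of Cdh5, Dll4, Flt1, Kdr and Tek in this comparison thus changed with the library left out.

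SNI+LDN193189 against sham shares its libraries with the other comparisons and adds no independent samples. All 10 genes stood below 0, as did 52.0% of all genes, with a median log2 fold change of -0.46 beside -0.0069 over all genes tested. In 7 of the 10, Kdr, Cldn5, Dll4, Nrp1, Tmem100, Pecam1 and Vstm4, every SNI+LDN193189 library was below every sham library, against 6.31% of all genes. Vstm4 averaged 14.5 ± 2.59 CPM in SNI+LDN193189 and 28.4 ± 3.91 CPM in sham, with a log2 fold change of -0.97 (SE 0.153), or a ratio of 0.511. Dll4 averaged 1.89 ± 0.145 CPM in SNI+LDN193189 and 3.65 ± 0.835 CPM in sham, with a log2 fold change of -0.95 (SE 0.212). Kdr differed by -0.74 (SE 0.188), Cldn5 by -0.66 (SE 0.153), Tmem100 by -0.54 (SE 0.102) and Nrp1 by -0.35 (SE 0.0693) on the log2 scale. Without sham replicate 3, Cdh5 moved to -0.16 beside -0.38 with all libraries, Tek to -0.09 beside -0.22 and Pecam1 to -0.11 beside -0.30. Without SNI+LDN193189 replicate 3, Cdh5 was at -0.25 and Tek at -0.13, and Tek was at -0.37 without SNI+LDN193189 replicate 2 and at -0.35 without sham replicate 2. With edgeR 0 of the 10 passed, where 0.0164% of genes did, and 9 of the 10 had an unadjusted p under 0.05 and were lower, against 4.49% of genes. DESeq2 called 6 of the 10 as lower, Kdr, Cldn5, Dll4, Nrp1, Tmem100 and Vstm4, against 0.227% of genes. None of the 10 was higher, whereas over all genes 4.07% were higher at an unadjusted edgeR p under 0.05, 0.177% were called higher by DESeq2 and 6.81% had every SNI+LDN193189 library above every sham library.

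By library, SNI+LDN193189 replicates 1 and 3 were among the 3 lowest of the 9 libraries for all 10 genes, and SNI+LDN193189 replicate 2 for 5 of them. The lowest library was SNI+LDN193189 replicate 3 for 6 genes, replicate 2 for 3 and replicate 1 for 1. SNI replicate 1 was among the 3 highest for 9 genes, while SNI replicate 3 was among the 3 lowest for 2, Cldn5 and Flt1. Without SNI replicate 3 the median of the 10 against SNI was -0.43, and without SNI+LDN193189 replicate 3 it was -0.33.

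The 10 genes were then set beside 38 other genes that endothelial cells in general express, of which 37 were tested and none is among the 10. The median log2 fold change of this list in SNI+LDN193189 against SNI was -0.03, with 24 genes lower and 13 higher. With edgeR or DESeq2, 0 passed. At an unadjusted edgeR p under 0.05 there was 1 lower gene, Ets1, and 1 higher gene, Calcrl, against 2.19% lower and 1.69% higher over all genes tested. In 3 of the 37, Egfl7, Ets1 and Palmd, every SNI+LDN193189 library was below every SNI library, against 5.55% of all genes. In 0 every library was above, against 5.71%. The mean log2 CPM of the list was 3.70 ± 0.144 in SNI+LDN193189, 3.72 ± 0.082 in SNI and 3.81 ± 0.212 in sham (SD, n = 3 each). The groups overlapped. SNI+LDN193189 replicate 3 lay 13.4% below the mean of the 9 libraries and sham replicate 3 lay 24.2% above it, while the others lay between -5.35 and 4.94%.

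Ets1, a transcription factor of endothelial cells and lymphocytes, stood at 17.6, 15.9 and 15.1 CPM in SNI+LDN193189, at 18.7, 21.3 and 18.9 CPM in SNI and at 21.3, 18.7 and 20.7 CPM in sham. Like Kdr, it was lowest in the 3 SNI+LDN193189 libraries, but it was picked as the gene of this list with the smallest edgeR p. Calcrl, the receptor that adrenomedullin and CGRP use, lay the other way, at 26.1 ± 1.79 CPM in SNI+LDN193189 and 22.9 ± 1.17 in SNI, a log2 fold change of 0.19 (SE 0.0839).

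Taken relative to the level of this list in each library, 4 of the 10 vessel genes, Dll4, Kdr, Vstm4 and Cdh5, were lower in every SNI+LDN193189 library than in every SNI library, against 2.32% of all genes on the same relative scale, and 2.8% were higher in every library. The relative log2 difference was -0.89 for Dll4, -0.67 for Kdr and -0.66 for Vstm4, close to the values without this step. The level of the list differed by -0.02 on the log2 scale between SNI+LDN193189 and SNI, so this step could move the differences only slightly. The relative difference was -0.38 for Tmem100, -0.35 for Cldn5, -0.27 for Cdh5 and -0.26 for Nrp1, and between -0.14 and -0.06 for Tek, Flt1 and Pecam1. The median of the 10 on this relative scale was -0.31 against SNI and -0.34 against sham for SNI+LDN193189, with 6 of the 10 lower in every SNI+LDN193189 library than in any sham library, against 1.91% of all genes, while 4.56% were higher. For SNI against sham the median was 0.02, with 0 of the 10 lower in every SNI library, against 1.9% of all genes, while 3.6% were higher. Nothing is read from these counts either.

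**Figure D3:**
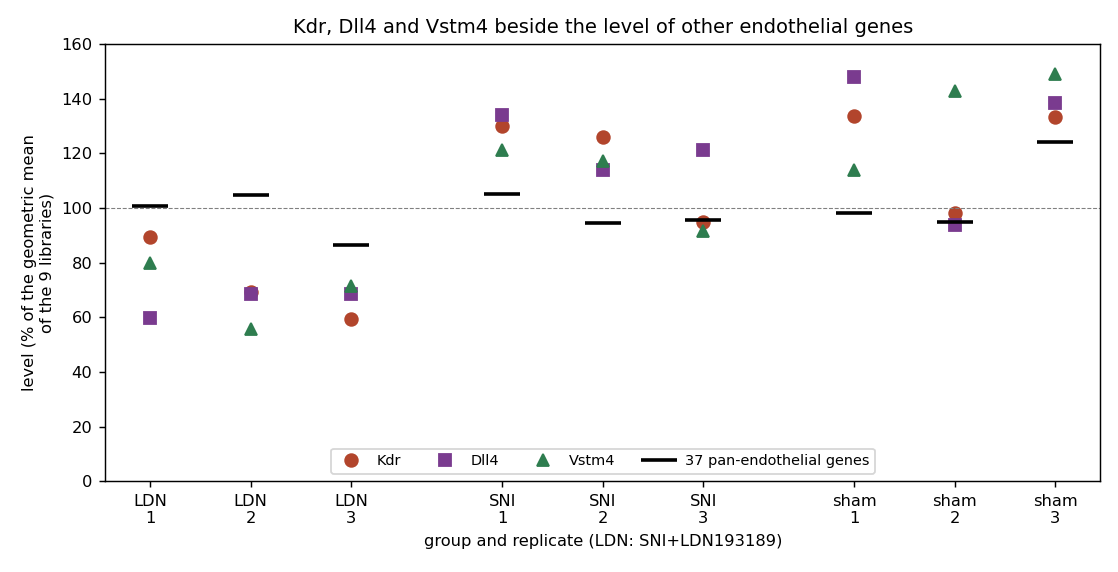
Levels of Kdr, Dll4 and Vstm4 and the mean level of 37 other endothelial genes in each library, in percent of the geometric mean of the 9 libraries, on a linear axis that starts at 0. The 3 genes lie below the bar of the other endothelial genes in each SNI+LDN193189 library, while the bars themselves overlap between groups.

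Other genes of the VEGF pathway were mixed. Of 12 other VEGF ligands, receptors and semaphorins tested, 6 were lower and 6 higher in SNI+LDN193189 against SNI, with a median log2 fold change of 0.04. With edgeR or DESeq2, 0 passed. An unadjusted edgeR p under 0.05 was found in 0, against 2.19% lower and 1.69% higher over all genes tested. Vegfa, the ligand of KDR, was chosen for mention after its values were seen. It stood at 95.8, 82.6 and 92.5 CPM in SNI+LDN193189, at 128, 87.7 and 90.7 CPM in SNI and at 115, 78.6 and 102 CPM in sham. The groups overlapped, and the log2 fold change of -0.18 (SE 0.192) rested on SNI replicate 1, without which it was 0.02. Vegfb, the ligand of FLT1, averaged 32.6 ± 1.67 CPM in SNI+LDN193189 and 29.2 ± 2.81 in SNI, and Flt4, the receptor for VEGF-C, averaged 6.58 ± 0.986 CPM in SNI+LDN193189 and 5.99 ± 0.2505 in SNI.

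Of 16 other Notch pathway genes 10 were lower and 6 higher, with a median of -0.05, and 0 passed with edgeR or DESeq2. At an unadjusted edgeR p under 0.05, Unc5b was lower and Lfng higher, against 2.19% lower and 1.69% higher over all genes tested. Unc5b, a netrin receptor of leading endothelial cells, averaged 72.3 ± 7.88 CPM in SNI+LDN193189 and 83.8 ± 10.25 in SNI, and Lfng, which modifies Notch with sugar and shifts its choice of ligand, averaged 26.6 ± 3.79 CPM in SNI+LDN193189 and 22.0 ± 2.24 in SNI. The log2 fold change of Unc5b was -0.21, and -0.13 without SNI+LDN193189 replicate 3 or -0.14 without SNI replicate 2, and that of Lfng was 0.27, and 0.15 without SNI+LDN193189 replicate 2. Notch1 and Dll1, a receptor and a ligand of the pathway that neural cells also express, had log2 fold changes of -0.13 (SE 0.0839) and -0.21 (SE 0.135), that of Dll1 being -0.13 without SNI replicate 1. In SNI against sham 8 Notch genes were lower and 8 higher, with 0 passing in edgeR or DESeq2. The Notch target Hey1 was the 1 gene of them higher at an unadjusted edgeR p under 0.05, by 0.18 (SE 0.0741). Over all genes tested 2.02% were. Of 4 other genes around TIE2, 2 were lower and 2 higher, with a median of -0.01. Angpt2, also on this list, was listed at 0 in all libraries and could not be tested. Tie1, the partner receptor of TIE2, had a log2 fold change of -0.17 (SE 0.161), which became -0.04 when SNI+LDN193189 replicate 3 was left out and -0.27 when replicate 2 of that group was, and Angpt1, its activating ligand, one of -0.11 (SE 0.0952).

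Of 19 other genes of endothelial BMP and ALK1 signalling, 8 were lower and 11 higher in SNI+LDN193189 against SNI, with a median of 0.02, and 0 passed with edgeR or DESeq2. Of these, 1 gene, Id2, a target of BMP signalling in many cells, was lower at an unadjusted edgeR p under 0.05, and 0 were higher. Over all genes tested 2.19% were lower and 1.69% higher. Id2 stood at 75.6, 67.9 and 80.2 CPM in SNI+LDN193189, at 106, 99.0 and 80.8 CPM in SNI and at 89.8, 112 and 86.3 CPM in sham. The SNI+LDN193189 libraries were below all the others, by a small margin for SNI replicate 3, and the log2 fold change was -0.35 (SE 0.129). Acvrl1, which encodes ALK1, averaged 17.6 ± 2.63 CPM in SNI+LDN193189 and 14.3 ± 1.82 in SNI, a log2 fold change of 0.30 (SE 0.172). Atoh8, an ALK1 target in endothelium, averaged 3.54 ± 0.368 CPM in SNI+LDN193189 and 2.70 ± 0.2503 in SNI, a log2 fold change of 0.39 (SE 0.193). In SNI against sham 0 genes of this list passed in edgeR or DESeq2. Smad7, a feedback inhibitor of the pathway, was the 1 gene higher at an unadjusted edgeR p under 0.05, by 0.32 (SE 0.0987). Over all genes tested 2.02% were. Smad7 differed by -0.05 (SE 0.0983) in SNI+LDN193189 against SNI and by 0.27 (SE 0.0988) in SNI+LDN193189 against sham.

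Barrier genes other than Cldn5 were mixed. Of 27 other genes of endothelial junctions and the blood-brain barrier, 14 were lower and 13 higher in SNI+LDN193189 against SNI, with a median of -0.02, and 0 passed with edgeR or DESeq2. Ly6a and Cavin2, also on this list, were listed at 0 in all libraries and could not be tested. At an unadjusted edgeR p under 0.05, 3 of the 27 were higher and 0 lower, against 1.69% higher and 2.19% lower over all genes tested. Slc2a1, the glucose transporter of the barrier, stood at 137, 136 and 169 CPM in SNI+LDN193189, at 119, 109 and 121 CPM in SNI and at 103, 125 and 124 CPM in sham. All 3 SNI+LDN193189 libraries were above the other 6, and the log2 fold change was 0.34 (SE 0.0977). Mfsd2a, the lipid transporter that restrains transcytosis at the barrier, averaged 39.9 ± 6.15 CPM in SNI+LDN193189 and 30.9 ± 3.82 in SNI, a log2 fold change of 0.37 (SE 0.139), which was 0.24 without SNI+LDN193189 replicate 3. Ocln, a tight junction protein, averaged 13.9 ± 0.517 CPM in SNI+LDN193189, 11.3 ± 0.512 in SNI and 14.0 ± 1.275 in sham, and was thus lowest in SNI. Its log2 fold change in SNI+LDN193189 against SNI was 0.30 (SE 0.104). In SNI against sham it was -0.31 (SE 0.104), and both comparisons share the SNI libraries.

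Of 16 genes of the Wnt signal that keeps the barrier, 11 were lower and 5 higher, with a median of -0.05, and 0 passed with edgeR or DESeq2. Wnt7a, a neural ligand of this signal, stood at 10.5, 7.08 and 8.00 CPM in SNI+LDN193189, at 14.0, 16.0 and 10.2 CPM in SNI and at 13.3, 12.0 and 9.96 CPM in sham. The groups overlapped, SNI+LDN193189 replicate 1 lying above SNI replicate 3, and the log2 fold change was -0.65 (SE 0.183). Fzd4, a Wnt receptor of endothelium, averaged 22.4 ± 4.055 CPM in SNI+LDN193189 and 17.9 ± 0.594 in SNI, a log2 fold change of 0.33 (SE 0.113).

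**Figure D4:**
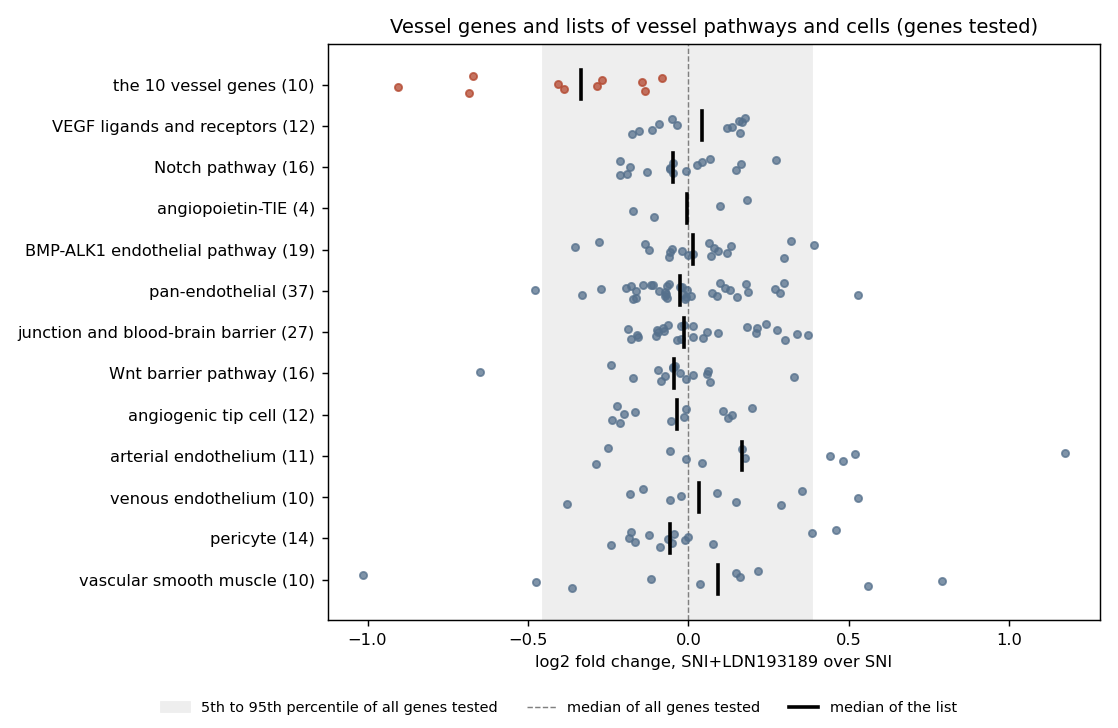
Log2 fold changes of SNI+LDN193189 over SNI for each tested gene of the 10 vessel genes and of 12 lists of vessel pathways and cells, with the number of genes tested in brackets, a black bar at each median, and the range from the 5th to the 95th percentile of all genes in grey. The 10 vessel genes, chosen with these values known, have a median of -0.34, and the medians of the 12 lists lie between -0.06 and 0.17.

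Lists for the kinds of vessel were mixed in SNI+LDN193189 against SNI, and 0 genes of any of them passed with edgeR or DESeq2. The median was -0.03 for 12 genes of leading cells, 0.17 for 11 arterial genes and 0.03 for 10 venous genes, beside a 75th percentile of 0.0763 over all genes. The list of leading cells held 16 genes. Esm1, Angpt2 and Adm, markers of these cells, were listed at 0 in all libraries and could not be tested. Leaving out 1 library gave 0.07 to 0.19 for the arterial median. Of these 3 lists, 1 gene was lower at an unadjusted edgeR p under 0.05 and 0 were higher, against 2.19% and 1.69% of all genes tested. That gene, the venous amino acid transporter Slc38a5, averaged 4.71 ± 0.966 CPM in SNI+LDN193189 and 6.12 ± 0.496 in SNI, a log2 fold change of -0.38 (SE 0.173). Without SNI+LDN193189 replicate 3 it was -0.22. Of 14 pericyte genes 11 were lower and 3 higher, with a median of -0.06 and 0 at an unadjusted p under 0.05. Rgs5, a pericyte gene, averaged 152 ± 5.58 CPM in SNI+LDN193189 and 179.7 ± 7.19 in SNI, a log2 fold change of -0.24 (SE 0.140). In SNI against sham the venous list had a median of -0.46, with 8 of 10 genes lower. Of these, 3 had an unadjusted edgeR p under 0.05, against 3.31% of all genes tested that were lower at that p. Without sham replicate 3 the median was -0.22, with 8 lower and 2 at an unadjusted edgeR p under 0.05. Il1r1, the interleukin-1 receptor of venous endothelium, averaged 7.53 ± 0.948 CPM in SNI and 12.6 ± 2.79 CPM in sham, with a log2 fold change of -0.74 (SE 0.186), and Nr2f2, the venous transcription factor, differed by -0.50 (SE 0.170). Neither passed with edgeR or DESeq2. The value of Nr2f2 was -0.28 without sham replicate 3. Without sham replicate 1 it was -0.67, and edgeR then called Nr2f2 at an adjusted p of 0.0358.

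Levels of markers of other tissue were uneven between libraries. All ranges given here for SNI+LDN193189 and SNI overlapped, but some single markers did not. Every SNI+LDN193189 library was above every SNI library in 4 of 10 Schwann cell and 3 of 10 muscle markers, against 5.71% of all genes tested. In 0 of these markers was every library below, against 5.55%. Of the fibroblast, lumbar Hox and erythrocyte markers, 0 stood apart in either direction. Higher and lower here count the sign of the fold change, not genes that passed a test. Pmp22, a myelin gene of Schwann cells, stood at 285 to 566 CPM in SNI+LDN193189, 157 to 299.5 CPM in SNI and 295 to 1639 CPM in sham. In SNI+LDN193189 against SNI 11 of 14 fibroblast markers were higher, with sums of 222 to 322 CPM in SNI+LDN193189, 185 to 275 in SNI and 229 to 943 in sham. Of the muscle markers 9 of 10 were higher, with sums of 4.57 to 17.7 CPM in SNI+LDN193189, 4.31 to 4.65 in SNI and 10.1 to 776 in sham. Of the lumbar Hox genes 6 of 7 were lower, with a median log2 fold change of -0.32 that was -0.08 without SNI+LDN193189 replicate 3, and with sums of 98.4 to 179 CPM in SNI+LDN193189, 161 to 202 in SNI and 169.6 to 199 in sham. Of the erythrocyte genes 4 of 5 were higher, with sums of 129.5 to 283 CPM in SNI+LDN193189, 111 to 157 in SNI and 187 to 279 in sham. In SNI against sham, 10 of 10 Schwann cell, 9 of 10 muscle and 14 of 14 fibroblast markers were lower. Their median log2 fold changes were -2.08, -6.63 and -0.86. Of these, 9, 9 and 4 had an unadjusted edgeR p under 0.05, against 3.31% of all genes, and 0 passed with edgeR or DESeq2. Of the erythrocyte genes 4 of 5 were lower in every SNI library than in every sham library, against 4.43% of all genes. The part of these markers in the levels of the 10 genes was not tested in any comparison.

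Genes outside the vessel lists also differed in the same comparison. Mmp14, a membrane-bound matrix protease, was the 1 gene that passed with edgeR in SNI+LDN193189 against SNI, at an adjusted p of 0.0194. With any of SNI+LDN193189 replicates 2 and 3 or SNI replicates 1 and 2 left out it did not pass, the adjusted p then being 0.122, 0.280, 0.280 and 0.271 with edgeR. It stood at 21.0, 16.8 and 18.5 CPM in SNI+LDN193189, at 33.8, 33.6 and 28.6 CPM in SNI and at 35.9, 43.0 and 38.8 CPM in sham. Per2, a clock gene, stood at 26.8, 28.1 and 31.9 CPM in SNI+LDN193189, at 17.1, 16.2 and 21.5 CPM in SNI and at 18.6, 15.6 and 17.1 CPM in sham, all 3 SNI+LDN193189 libraries being above the other 6. Per2 did not pass with edgeR (adjusted p = 0.2265). DESeq2 called 7 genes in this comparison, among them Mmp14, Per2, Vstm4 and Kdr. SNI replicate 3 was the lowest SNI library for Mmp14 and the highest for Per2, and it was also the lowest SNI library for Kdr, Flt1, Nrp1, Cldn5, Tek, Tmem100 and Vstm4.

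The genes most like Kdr over the 9 libraries, among 15163 genes averaging at least 1 CPM, were Srsf9 with a Pearson r of 0.954, Wrnip1 and Ets1 with 0.942, and Ddit4l and Sctr with 0.94. Ets1 was the 1 gene of these that was also in the endothelial list. For the mean pattern of the 10 genes they were Zfp975 with 0.957, Fam149b with 0.951, Vps37b with 0.943, Srsf9 with 0.942 and Tmem108 with 0.924. The 9 libraries belong to 3 groups, and these correlations are given as description.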

How the data were processed

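Poly(A) RNA of 9 spinal cord libraries was sequenced as 150 bp pairs from strand-marked libraries, per the labels' protocols, whose extraction text speaks of cell lines. The authors deposited whole-number read counts for 40879 gene symbols, and FPKM values that, in 26285 of 26285 genes with a count, equalled the deposited count divided by library total and 1 length per gene (relative tolerance 1e-09). Per the submitters' processing notes the build is mm10. The sources used here name no aligner, counter, annotation or strand setting. Columns are lettered L, N and S, read from these letters as SNI+LDN193189, SNI and sham, and 0 library columns lay outside the map. If S stood for SNI, every value given for SNI would belong to sham and the reverse.

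Counts were scaled by TMM and tested in 1 fit of all 9 libraries with the edgeR 4.0.16 quasi-likelihood F test (robust, R 4.3.3). The filter on low counts left 18245 genes. P-values were adjusted by Benjamini-Hochberg over all of them and called under 0.05. CPM are counts scaled to a common library size. Positions are those of GENCODE M21 on GRCm38. Alternatives were DESeq2 1.42.0, limma 3.58.1 (voom, and log2 FPKM with pseudocounts 0.1 and 1), RLE scaling, no filter, a replicate block, fits of 6 libraries and leaving out each library. DESeq2 filtering at 0.05 and levels relative to 37 endothelial genes were added after the data were seen. On simulated data with 200 genes changed by a log2 change of 1, the fit recovered 88% in SNI+LDN193189 against SNI (17961 genes tested), 87% in SNI against sham (17962) and 84% in SNI+LDN193189 against sham (17991), and the share of calls that were false was 11.6, 7.94 and 8.7% in the same order, above the nominal 5%. The changed genes were drawn only from those above a minimum mean count. Recovery of smaller changes was not simulated, and the lowest log2 fold change of the 10 genes in the main fit was -0.97.

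The 10 genes, the 25 lists and the tests were chosen with earlier results of these data known. Named beside the 10 were, of each vessel list, up to 4 genes with the smallest p in SNI+LDN193189 against SNI and up to 2 in SNI against sham, of other marker lists the 2 most abundant genes, and the 5 genes most like Kdr or the mean of the 10 in pattern; those not needed are left out. Aqp4, P2ry12, Egfl7, Palmd, Esm1, Angpt2, Adm, Ly6a and Cavin2 were named after their values were seen. The summed level of the Schwann cell list is not reported here.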

Additional observations from a re-analysis of the deposited data

How the results depend on the processing

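The median log2 fold change of the 10 vessel genes moved by less than the spread between replicates under all alternatives run. Leaving out 1 library gave -0.43 to -0.27 in SNI+LDN193189 against SNI, -0.21 to -0.02 in SNI against sham and -0.52 to -0.44 in SNI+LDN193189 against sham. For the 37 endothelial genes these ranges were -0.09 to 0.04, -0.17 to 0.03 and -0.18 to -0.02. Of 180 values of single genes under alternatives, 179 were below 0 in SNI+LDN193189 against SNI, the exception being Pecam1 at 0.0061, and 180 of 180 in SNI+LDN193189 against sham, but 164 of 180 in SNI against sham. These values are the same 10 genes, chosen with the results known, refitted on all or part of the same libraries. They are not independent, the share over all genes was not computed, and nothing is read from these counts. Vegfa turned to 0.0188 in SNI+LDN193189 against SNI without SNI replicate 1.

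Counts of genes called depended on the tool. In SNI+LDN193189 against SNI the edgeR count of 1 became 2 with no filter, 3 with 6 libraries, 7 with DESeq2, 5 with DESeq2 filtering at 0.05, 0 with limma-voom, 0 with limma on log2(FPKM + 0.1) and 0 with log2(FPKM + 1). In SNI against sham the count of 0 became 25 with DESeq2 and 24 with DESeq2 filtering at 0.05. In SNI+LDN193189 against sham the count of 3 became 30 with no filter, 64 with DESeq2, 72 with DESeq2 filtering at 0.05, and 1 with limma-voom and with limma on either FPKM scale. Leaving out 1 library gave 0 to 2, 0 to 38 (38 without sham replicate 1) and 1 to 17 genes (17 without SNI replicate 3). The cause was not tested. Mmp14 did not pass in SNI+LDN193189 against SNI under the replicate block (adjusted p = 0.073), limma-voom (0.26) or limma on FPKM, or when any 1 of 4 libraries was left out.

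Whether replicate numbers pair the libraries was not settled, since differently numbered libraries were not compared. The correlation of deviations between same-numbered libraries ran from -0.0987 to 0.0917 for SNI+LDN193189 and SNI. It ran from 0.0931 to 0.279 for SNI and sham, and from -0.177 to -0.0103 for SNI+LDN193189 and sham. With the number as a replicate block edgeR called 0 genes in SNI+LDN193189 against SNI, 0 in SNI against sham and 4 in SNI+LDN193189 against sham. Dll4, with 60 to 159 counts, has the least depth of the 10, and a bulk level cannot separate cell number from RNA per cell.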
